A study of Homo sapiens with 12 samples.

Results

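The row of the MIR143 gene and the transcripts that host endogenous microRNAs (miRNAs) were followed across argonaute 2 (AGO2) precipitates of K562 cells. The 7 genes were the miRNA gene carried by the overexpression vector (MIR143), its native host MIR143HG, and the hosts MIR17HG, MCM7, MIR22HG, DLEU2 and SMC4. They were found by name in 8 of the 61782 rows of the deposited tables, because MIR22HG has 2 rows. DLEU2 shares its row with MIR15A, so that the value of this joined row cannot be assigned to either gene. Of the 8 rows, 7 were above 0 in at least 1 group, and the repeated MIR22HG row was at 0 throughout.

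K562 is a human erythroleukemia cell line, and per the methods of the study it carried an inducible C/EBPα-ER. Cells were stably infected with the lentivirus pLV-miR-143 or with pLV-control (both from Biosettia), and both vectors carried an RFP reporter and puromycin resistance. The labels give selection with puromycin, whereas the methods name this drug or cell sorting and have the C/EBPα-ER line itself kept in puromycin. From both populations RNA was recovered with AGO2 antibody or, as the mock, with unspecific IgG. The 4 groups, control_IgG, control_AGO, miR143_IgG and miR143_AGO, have 3 samples each by their titles. The sources used here do not say whether the transduced cells were clonal. All groups shared the cell line and the RFP reporter, so that by their labels they differed in the miRNA insert and the antibody.

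Each group was deposited as 1 average FPKM per row (fragments per kilobase of transcript length, relative to all mapped fragments). All differences below are therefore ratios of the authors' averages, with no replicate check, no error and no test. Log2 ratios were taken on FPKM + 1, over rows with at least 1 FPKM in 1 of the groups compared, and this scale understates the difference of low genes. Rows above 0 numbered from 8393 in control_IgG to 12937 in miR143_AGO. Fragment numbers are unknown, but the smallest products of FPKM and transcript length that were listed, here called the low edge, were 13.9 times higher in control_IgG than in miR143_AGO. The factor was 1.17 in control_AGO and 1.76 in miR143_IgG, so that low values in control_IgG rest on the fewest fragments. Of 10 erythroid genes in 9 rows, 8 rows in control_IgG and 9 in each other group were at 1 FPKM or more, among them GATA1 at 52.0 to 73.2 FPKM. The rows of EPOR, of HBG1 with HBG2 and of HBZ are joined with further genes, so that their values cannot be assigned to these genes alone. The smooth muscle and fibroblast genes ACTA2 and COL1A2 were at 0 in all groups, and their summed list of 7 genes ran from 3.74 to 32.0 FPKM, most of it CNN1. The summed level of 3 lymphoid genes was at most 0.230 FPKM, that of 2 epithelial genes at most 8.28 FPKM and that of 4 monocyte and granulocyte genes 6.62 to 14.6 FPKM.

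A miRNA is cut from a longer primary transcript. The enzyme complex of Drosha and DGCR8 releases a hairpin in the nucleus, Dicer removes its loop, and AGO2 keeps 1 arm as the mature miRNA, whose bases 2 to 8 (the seed) pair with target mRNAs. Some hairpins lie in noncoding host transcripts that have little other known role, and others lie in introns of protein-coding genes, where host mRNA and miRNA come from the same transcript. A host transcript is therefore a measure of transcription at the locus and not of the mature miRNA.

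The sequences below are those whose transcripts the rows stand for. They were taken from RefSeq (GRCh38.p14), in which all 16 miRNA genes were matched, and the seed is in capitals. The product of the vector miRNA and the partner of its native cluster come first, and miR-143-3p is the arm usually described as the active one.
hsa-miR-143-5p: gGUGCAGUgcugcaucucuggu
hsa-miR-143-3p: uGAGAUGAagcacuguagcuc
hsa-miR-145-5p: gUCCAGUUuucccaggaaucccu
The hairpin of MIR143 (GRCh38.p14, 5:149428918-149429023, plus strand) is the 106 bases that the row covers, with both arms in capitals.
MIR143 hairpin: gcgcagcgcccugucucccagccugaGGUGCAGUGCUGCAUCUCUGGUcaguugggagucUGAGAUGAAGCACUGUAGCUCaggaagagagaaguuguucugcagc

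The endogenous hosts pair off by the seeds they carry. MIR17HG and MCM7 both hold miRNAs with the seed AAAGUGC, which are known as promoters of proliferation.
hsa-miR-17-5p, in MIR17HG: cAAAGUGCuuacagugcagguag
hsa-miR-20a-5p, in MIR17HG: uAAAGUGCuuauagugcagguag
hsa-miR-106b-5p, in MCM7: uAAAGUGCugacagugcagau
hsa-miR-93-5p, in MCM7: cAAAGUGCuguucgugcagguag
Counted from the 5′ end, miR-17-5p and miR-20a-5p were the same at 21 of 23 positions, and miR-17-5p and miR-106b-5p at 18 of 21. The same hosts share a second seed, AUUGCAC.
hsa-miR-92a-3p, in MIR17HG: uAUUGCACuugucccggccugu
hsa-miR-25-3p, in MCM7: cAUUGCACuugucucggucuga
DLEU2 and SMC4 share the seed AGCAGCA of the miR-15/16 family, which is known to restrain the cell cycle and BCL2. The mature miR-16-5p is the same from both hosts.
hsa-miR-15a-5p, in DLEU2: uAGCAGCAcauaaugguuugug
hsa-miR-16-5p, in DLEU2 and SMC4: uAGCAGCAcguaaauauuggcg
hsa-miR-15b-5p, in SMC4: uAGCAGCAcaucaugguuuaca
MIR17HG also holds miR-19a and miR-19b, which have a seed of their own and differ at 1 of the 23 positions, since 22 were the same. MIR22HG holds miR-22, whose seed no other host shares.
hsa-miR-19a-3p, in MIR17HG: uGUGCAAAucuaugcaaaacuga
hsa-miR-19b-3p, in MIR17HG: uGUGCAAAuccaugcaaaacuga
hsa-miR-22-3p, in MIR22HG: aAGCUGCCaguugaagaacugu

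In GENCODE 29 (GRCh38) every one of these miRNA genes lies on the strand of its host. MIR22 is exonic in all 19 MIR22HG transcripts (17:1711493-1717174, minus strand), and the 6 miRNA genes of MIR17HG (13:91347820-91354579, plus strand) are exonic in 2 of its 3 transcripts. The remaining coding and long hosts carry them in introns. MIR106B, MIR93 and MIR25 are spanned by 8 of 13 transcripts of MCM7 (7:100092728-100101940, minus strand) and lie in an exon of 0. MIR15A and MIR16-1 are spanned by 6 of 8 transcripts of DLEU2 (13:49982552-50125720, minus strand), and MIR15B and MIR16-2 by 13 of 27 of SMC4 (3:160399274-160434962, plus strand), again with 0 exonic. MIR143HG (5:149406689-149432835, plus strand) is named CARMN in GENCODE, and 1 of its 12 transcripts reaches MIR143, within an exon. Spliced reads of MCM7 or SMC4 therefore contain no miRNA sequence, whereas reads of MIR17HG or MIR22HG can.

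**Figure D1:**
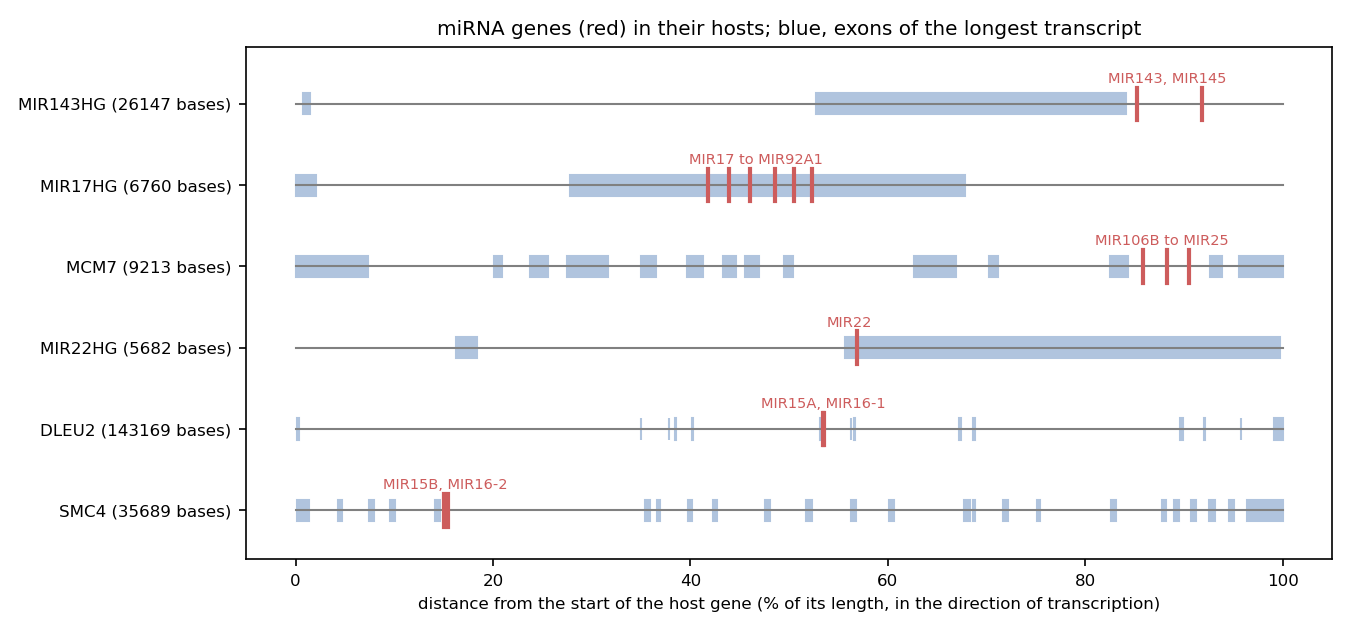
Position of the miRNA genes (red) in their hosts, as percent of the host's length from its start in the direction of transcription, with the exons of the longest transcript in blue. MIR17 to MIR92A1 and MIR22 fall in an exon, while those of MCM7 and SMC4 fall between exons.

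The MIR143 row separated the vector groups completely. It was listed at 0 in control_IgG and control_AGO, whereas miR143_IgG held 44781 FPKM and miR143_AGO 118393 FPKM. Among all rows it had rank 8 in miR143_IgG and rank 1 in miR143_AGO. No fold over the control groups was computed, as both were at 0. Within miR-143 cells the level was 2.64 times higher in the AGO2 than in the mock precipitate, so that the mock held 37.8% of the AGO2 level. With the groups scaled to the same median, upper quartile or sum of coding rows, the ratio was 3.24, 3.59 and 3.77. For the level in miR-143 cells, though not for this ratio within the same population, more transduced cells and more RNA per cell cannot be told apart.

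The size of this row depends on how length enters the unit. Of the FPKM summed over all rows, MIR143 took 28.8% in miR143_AGO and 1.73% in miR143_IgG. FPKM divides by transcript length, and the row is 106 bases long. Multiplied back by this annotated length, its FPKM would stand for 1.25% of all mapped fragments in miR143_AGO and 0.475% in miR143_IgG. This is an estimate, which holds only if the authors' FPKM was formed with the same length. Against the long MCM7 transcript in miR143_IgG, MIR143 was 660 times higher in FPKM and 22.7 times higher in FPKM times length. The row thus headed miR143_AGO in FPKM while, by this estimate, it displaced little of the total from which the other rows were scaled.

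MIR143 stood alone among miRNA genes. Of 1532 rows with a single miRNA gene name (1439 names), MIR143 was the only one above 0, in both miR-143 groups, and 0 were above 0 in either control group. This includes MIR106B, MIR93, MIR25, MIR16-1, MIR15B and MIR16-2, all at 0 in all groups. Of their hosts, MCM7 and SMC4 were above 0 in all groups, and the joined row of DLEU2, which holds MIR16-1, in 1 group. No row is named for MIR145, MIR17, MIR18A, MIR19A, MIR20A, MIR19B1, MIR92A1 or MIR22. Joined rows with a miRNA gene and a longer gene numbered 81, of which 40 to 46 were above 0 in a group.

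A value of 0 for a gene this short carries little information in these tables. Among 3734 rows of genes whose longest transcript has 60 to 120 bases, only 3 were above 0 in any group (0.0803%), against 5.05% of rows over 200 and up to 500 bases and 43.5% of rows over 500 bases. Of 212 snoRNA rows of 60 to 120 bases, abundant nucleolar RNAs of every cell, 0 were above 0. So the endogenous miRNA genes cannot be called absent from K562 cells by these values. The length classes were set once the values were known.

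The 3 short rows above 0 stood in opposite directions between mock and AGO2 precipitates. RNU5E-1, a gene of the U5 spliceosomal RNA, was at 10029 FPKM in the mock and 429 FPKM in the AGO2 precipitate of control cells, and at 12356 and 0 FPKM in those of miR-143 cells. RNY1, the Y1 RNA bound by Ro, was at 92640 and 362 FPKM in control cells and at 9402 and 0 FPKM in miR-143 cells, again with the mock first. Both were lower in the AGO2 than in the mock precipitate of each population, and MIR143 was the one short row that was higher. RNU5E-1 and RNY1 were picked with their values known.

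**Figure D2:**
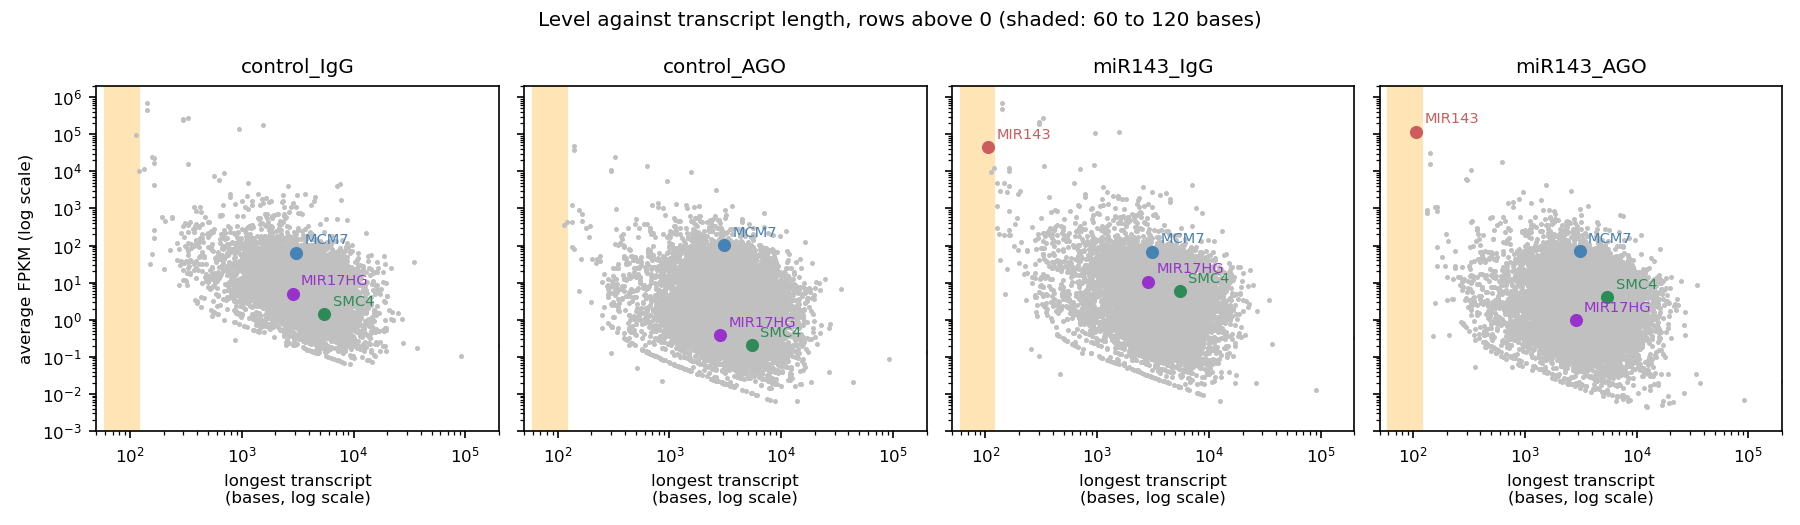
Average FPKM (log scale) of each single-name row above 0 against the length of its longest GENCODE transcript (log scale), 1 panel per group, with rows at 0 left out and the class of 60 to 120 bases shaded. MIR143 is the only row in the shaded class of miR143_AGO, at 118393 FPKM, and MCM7, MIR17HG and SMC4 lie among the longer transcripts.

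The native host of miR-143 gave almost no signal. MIR143HG, the host of the endogenous miR-143 and miR-145 cluster and a transcript known from smooth muscle, was at 0 FPKM in control_IgG, control_AGO and miR143_IgG and at 0.0572 FPKM in miR143_AGO. This value is 9.45 times the low edge of its group, the smallest multiple among the values of the 7 genes above 0. Within 100 kb of MIR143, AFAP1L1 and IL17B were at 0 in all groups. GRPEL2, a mitochondrial import factor, was at 10.1 FPKM in the control and 9.31 in the miR-143 mock, and at 1.62 and 2.37 FPKM in the AGO2 precipitates of control and miR-143 cells. PCYOX1L was at 0 and 9.92 FPKM in these mocks and at 3.60 and 3.71 FPKM in these AGO2 precipitates. The joined row of CSNK1A1 was at 36.3 and 15.7 FPKM in these mocks and at 14.0 and 8.49 FPKM in these AGO2 precipitates. GRPEL2-AS1 was at 0 and 6.30 FPKM in these mocks and at 0.307 and 0 FPKM in these AGO2 precipitates. The neighbours were looked up with the MIR143 value known. The deposited row cannot say which molecules carried the reads, as transcripts of the vector, the hairpin and the mature miRNA cannot be told apart in it.

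**Figure D3:**
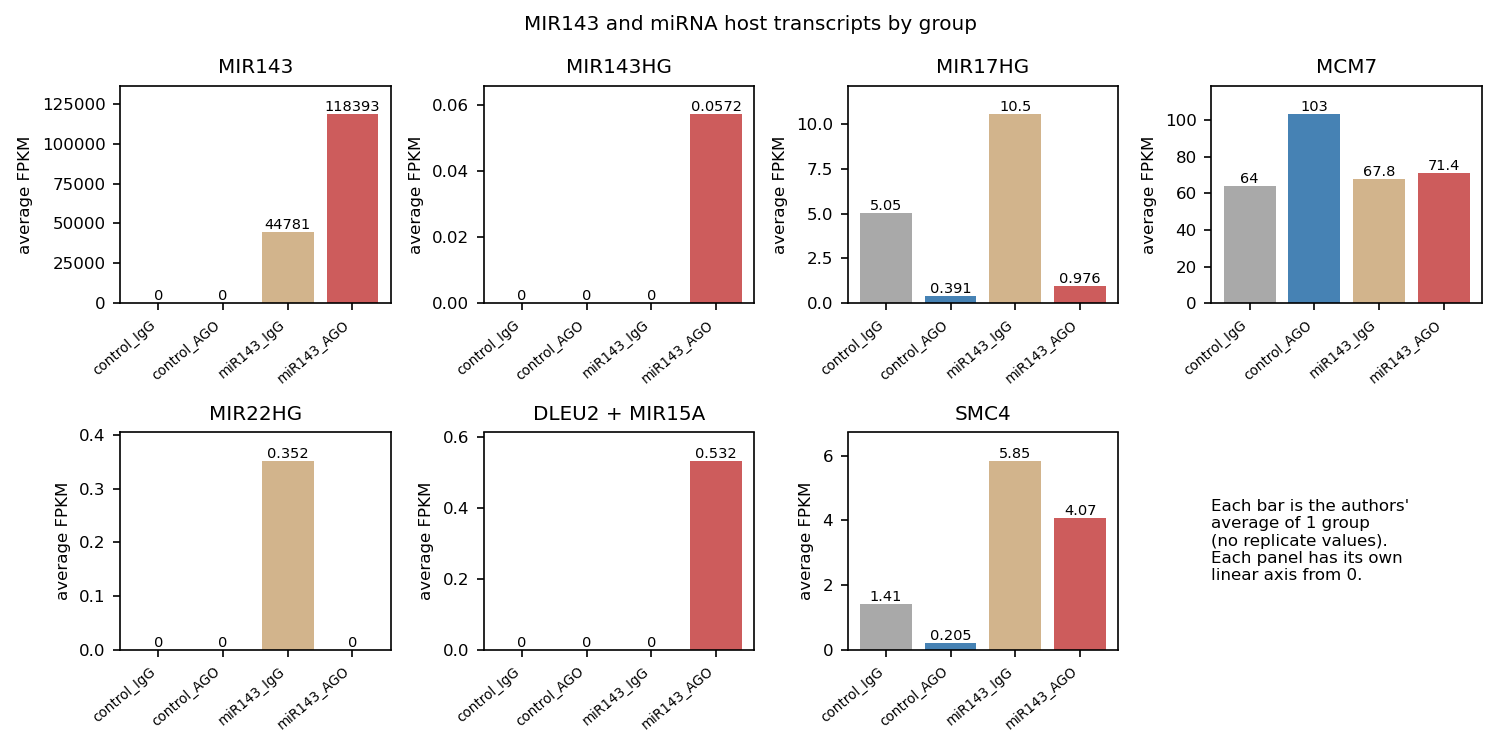
Average FPKM of the 7 genes in the 4 groups, 1 bar per group and each panel on its own linear axis from 0, with no error bars because each group has 1 deposited value. MIR143 is above 0 in the miR-143 groups only, MIR17HG is higher in both mock groups, and MCM7 is highest in control_AGO at 103 FPKM.

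Of the 6 hosts, only MIR17HG, MCM7 and SMC4 reached 1 FPKM in any group, and the noncoding MIR143HG, MIR22HG and DLEU2 were below it. MIR17HG is the primary transcript of the oncogenic miR-17 to miR-92a cluster. Its level was 5.05 FPKM in control_IgG and 10.5 FPKM in miR143_IgG, against 0.391 FPKM in control_AGO and 0.976 FPKM in miR143_AGO. The mock precipitates were high and the AGO2 precipitates low in both populations.

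In plain FPKM, MIR17HG was 12.9 times lower in control_AGO than in control_IgG and 10.8 times lower in miR143_AGO than in miR143_IgG. The log2 ratios of FPKM + 1 were −2.12 and −2.55. These stood below most rows, since 16.8% of rows were lower in control_AGO over control_IgG and 8.66% in miR143_AGO over miR143_IgG. MIR17HG had passed the filter only through the mock in both comparisons, so that the filter fixed the direction of these ratios. Between vectors, MIR17HG was 2.09 times higher in miR143_IgG than in control_IgG in plain FPKM (log2 ratio 0.93, with 62.9% of rows lower). In the AGO2 precipitates it was under 1 FPKM in both, so that their ratio of 2.50 was not counted. Its values were 20.4 and 18.7 times the low edge in the control groups (mock first) and 335 and 54.6 times in the miR-143 groups.

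MIR22HG, the noncoding host of miR-22, was listed in miR143_IgG only, at 0.352 FPKM and 10.3 times the low edge, and at 0 in the other 3 groups. Its second row was at 0 in all 4 groups. DLEU2, joined with MIR15A, is the noncoding host of miR-15a and miR-16-1 in a region often deleted in chronic lymphocytic leukemia. The joined row was at 0.532 FPKM in miR143_AGO and at 0 in the other 3 groups. At 32.1 times the low edge it was above MIR22HG and MIR143HG in fragments, and none of these 3 rows entered a comparison.

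MCM7, a subunit of the MCM helicase that opens DNA for replication, was the most abundant of the 6 hosts followed here per transcript length. Its level was 64.0 FPKM in control_IgG and 67.8 FPKM in miR143_IgG, and 103 FPKM in control_AGO and 71.4 FPKM in miR143_AGO. Only control_AGO stood above the others. MCM7 was 1.61 times higher in control_AGO than in control_IgG (log2 ratio 0.68, with 62.0% of rows lower) and 1.05 times higher in miR143_AGO than in miR143_IgG (log2 ratio 0.07). Between the AGO2 precipitates it was 1.45 times lower in miR-143 cells (log2 ratio −0.53, with 24.1% of rows lower), and between the mocks the log2 ratio was 0.08. With the groups scaled to each other, the log2 ratio of control_AGO over control_IgG was 1.08 to 1.32, past 2-fold, and that of miR143_AGO over miR143_IgG 0.36 to 0.58. The hosts that share seeds differed in their averages, as MIR17HG was lower in the AGO2 than in the mock precipitates and MCM7 was not. For MIR17HG, which had passed only through the mocks, the filter fixed this direction, so that no conclusion is drawn from the difference.

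The other helicase subunits, chosen as a comparison after the MCM7 values had been seen, differed among themselves. MCM4 was at 102 and 94.5 FPKM in the mocks of control and miR-143 cells and at 18.0 and 42.4 FPKM in their AGO2 precipitates. Of MCM2 to MCM6, 3 of 5 were at least 2-fold lower in control_AGO than in control_IgG, against 36.2% of all rows, and MCM2 and MCM5 had log2 ratios of 0.07 and 0.02. Between the AGO2 precipitates, MCM4 was the 1 of 5 at least 2-fold higher in miR-143 cells on FPKM + 1 (log2 ratio 1.19), where 17.7% of all rows were. In plain FPKM, MCM4 was 2.35 times and MCM3 2.27 times higher. The median log2 ratio of the 5 was 0.72, and that of MCM7 was −0.53.

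SMC4, a core subunit of the condensin complexes that compact chromosomes, hosts miR-15b and miR-16-2. Its level was 1.41 FPKM in control_IgG and 0.205 FPKM in control_AGO, against 5.85 FPKM in miR143_IgG and 4.07 FPKM in miR143_AGO. Both miR-143 groups were above both control groups. Between the AGO2 precipitates SMC4 was 19.8 times higher in miR-143 cells in plain FPKM, and 2.07 on the log2 scale of FPKM + 1, which was higher than the ratio of 97.9% of rows. SMC4 had passed the filter there only through miR143_AGO, so that the filter fixed the direction of this ratio.

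The same direction stood in the mock precipitates. SMC4 was 4.14 times higher in miR143_IgG than in control_IgG (log2 ratio 1.51, with 74.96% of rows lower). It was 6.87 times lower in control_AGO than in control_IgG and 1.44 times lower in miR143_AGO than in miR143_IgG, with log2 ratios of −1.00056 and −0.43. The first of these lay just past the 2-fold limit and fell short of it when the groups were scaled, at −0.83 to −0.76. SMC4 had also passed into it only through control_IgG. The values behind the control groups were small, at no more than 18.9 times the low edge, against 358 times in miR143_IgG and 438 times in miR143_AGO.

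The other condensin subunits, also chosen after the SMC4 values had been seen, were not alike in the mocks and in the AGO2 precipitates. Of 7 subunits, 4 were at least 2-fold higher in miR143_IgG than in control_IgG, against 36.2% of all rows, and their median log2 ratio was 1.53 against 0.17. Of the 5 compared between the AGO2 precipitates 0 were past 2-fold, where 17.7% of all rows were higher and 14.1% lower, and the median was −0.24. NCAPG, a condensin I subunit, was at 2.86 and 6.06 FPKM in the mocks of control and miR-143 cells and at 0.0367 and 0.470 FPKM in their AGO2 precipitates, below the 1 FPKM limit in both AGO2 groups.

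Set against all rows, the hosts did not stand out by number. Between the AGO2 precipitates, 1 of the 2 hosts compared was at least 2-fold higher in miR-143 cells (SMC4) and 0 were lower, where 17.7% of all 9798 rows compared were higher and 14.1% lower. Between the mocks, 1 of 3 was higher (SMC4) and 0 were lower, against 36.2% and 26.8% of 10172 rows. In control_AGO over control_IgG, 2 of 3 were lower (MIR17HG and SMC4) and 0 higher, against 36.2% lower and 34.5% higher of 9919 rows. In miR143_AGO over miR143_IgG, 1 of 3 was lower (MIR17HG) and 0 higher, against 33.5% lower and 26.6% higher of 10643 rows. No host was past 10-fold on FPKM + 1 in any of the 4 comparisons, where 1.03%, 8.87%, 9.36% and 5.27% of rows were, in the same order. The hosts called lower in AGO2 over mock had all passed the filter only through the mock. Between the AGO2 precipitates SMC4 had passed only through miR143_AGO, so that the filter fixed these directions. With counts of 2 or 3, these shares say nothing about the hosts as a class.

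The split of all rows itself moved with the scaling. In control_AGO over control_IgG, up to 40.8% of rows were higher and 27.6% to 30.6% lower when the groups were scaled to each other, and 1 host was then higher (MCM7) and 1 lower (MIR17HG). In miR143_AGO over miR143_IgG, 30.8% to 34.0% were higher and 25.8% to 29.1% lower.

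**Figure D4:**
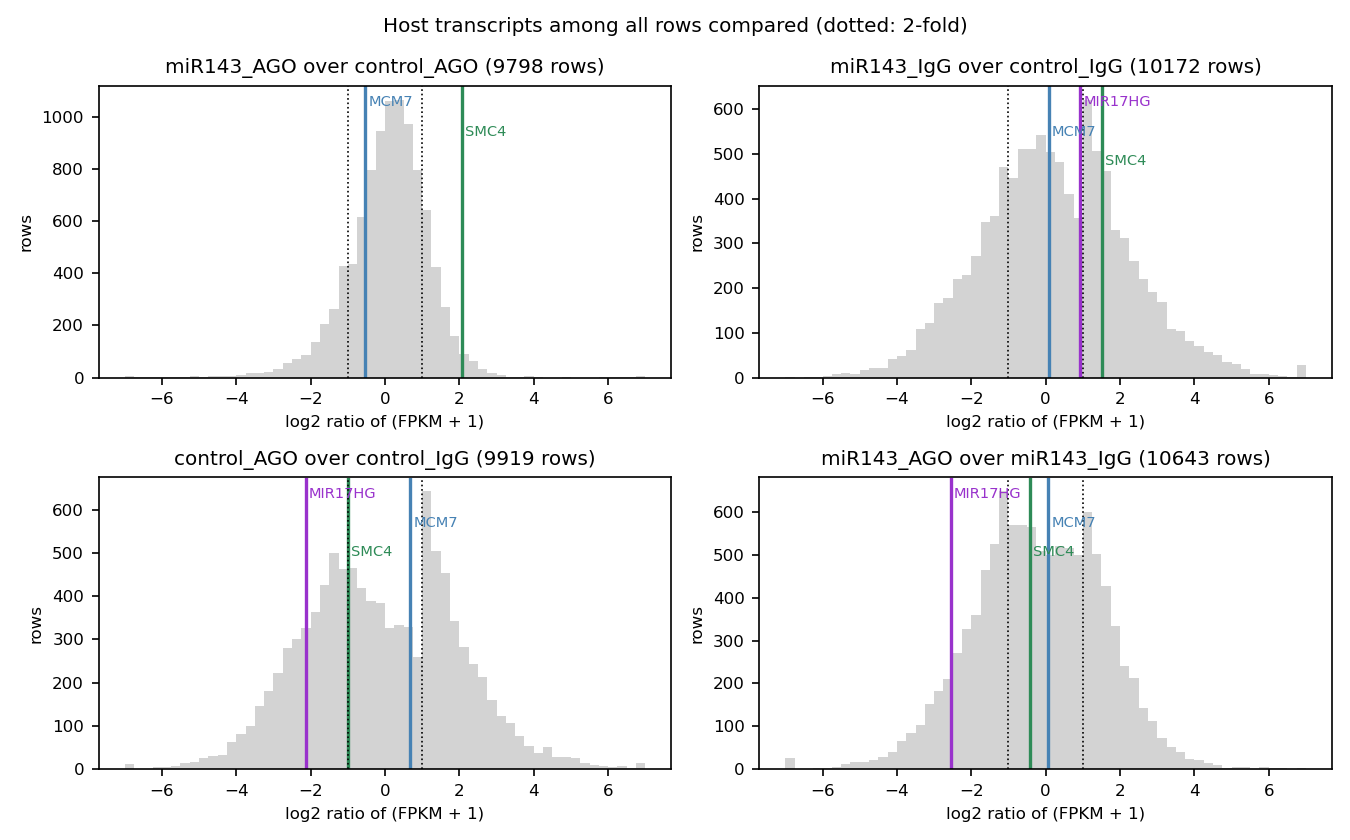
Histograms of the log2 ratio of FPKM + 1 over all rows compared in each of the 4 comparisons (values beyond 7 drawn in the end bins), with MCM7, SMC4 and MIR17HG as coloured lines where they passed the limit of 1 FPKM and the 2-fold limits dotted. SMC4 at 2.07 lies in the upper edge of the AGO2 comparison, and MIR17HG at −2.12 and −2.55 in the lower part of both comparisons with the mock.

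A ratio corrected for the mock was formed as the AGO2 over mock ratio in miR-143 cells over that in control cells. On the log2 scale it was −0.42 for MIR17HG, −0.61 for MCM7 and 0.57 for SMC4, so that none was past 2-fold. For SMC4 the corrected value was smaller than the 2.07 between the AGO2 precipitates, because the mocks differed too. It was 1.80 with a pseudocount of 0.1 in place of 1, and that of MIR17HG was then 0.09, with the opposite sign.

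For reference, 57 other host genes of known miRNAs were listed from general knowledge, of which 53 have a row and 5 of these are joined. Their coding members were well represented, with 26 to 29 of 41 at 1 FPKM or more in a group, that is 63.4% to 70.7%. Over all rows of 1 coding gene the shares were 31.4% to 37.1%. The noncoding ones were mostly at 0, in 8 to 11 of 12 rows per group, and MIR143HG, MIR22HG and DLEU2 shared this low level. This is not particular to them, as only 13.6% of all rows in control_IgG to 20.9% in miR143_AGO were above 0.

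Between the AGO2 precipitates, 3 of 32 other hosts (9.38%) were at least 2-fold higher in miR-143 cells and 2 (6.25%) lower, against 17.7% and 14.1% of all rows. Their median log2 ratio was 0.20 against 0.17 over all rows. Among those at 1 FPKM or more in both groups, the highest was DGCR8, the partner of Drosha and host of miR-1306, at 7.29 FPKM in miR143_AGO and 2.66 in control_AGO (log2 ratio 1.18). PVT1, EVL, RNF130 and DALRD3 followed at 0.77 to 0.52. The lowest was SREBF2, a regulator of cholesterol synthesis and host of miR-33a, at 25.9 and 55.6 FPKM (log2 ratio −1.07). HNRNPK (joined with MIR7-1), PTK2, MAP2K4 and SREBF1 followed at −0.95 to −0.76. MCM7 at −0.53 was within the range of these named hosts. SMC4 at 2.07 had passed only through miR143_AGO, and of the hosts that passed in the same way MEST, at 3.78 FPKM and listed at 0 in control_AGO, had a log2 ratio of 2.26. The joined row of MIR497HG, at 2.60 and 0.0750 FPKM, had one of 1.74. Between the mocks, 10 of 33 (30.3%) were higher and 6 (18.2%) lower, against 36.2% and 26.8% of all rows, with a median of 0.12.

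Some of them were also low in AGO2 over mock, as MIR17HG was, at shares near or below those of all rows. In control_AGO over control_IgG, 7 of 32 other hosts (21.9%) were higher and 11 (34.4%) lower, against 34.5% and 36.2% of all rows. In miR143_AGO over miR143_IgG, 5 of 34 (14.7%) were higher and 10 (29.4%) lower, against 26.6% and 33.5% of all rows. The medians of the 2 comparisons were −0.39 and −0.09. When the groups were scaled the first split was 8 to 10 higher and 6 to 8 lower, and the second 8 to 10 higher and 9 to 10 lower. DGCR8 was at −2.26 and −2.33, and COPZ1, a coatomer subunit that hosts miR-148b, at −1.81 and −2.52. EIF4H, a translation factor that hosts miR-590, was at −1.34 and −1.71. AOPEP (row C9orf3) and PVT1 completed the low end in control cells at −2.06 and −1.42, and ACADVL and PPARGC1B that in miR-143 cells at −2.11 and −2.07.

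At the high end stood PANK3, a pantothenate kinase that hosts miR-103a, at 2.10 and 1.83, its paralog PANK2 at 1.43 and 0.89, and EGFL7, a secreted endothelial factor that hosts miR-126, at 2.30 and 0.90. EVL and WDR82 followed in control cells at 1.58 and 0.86, and ARRB1 and DALRD3 led in miR-143 cells at 1.96 and 1.84. Over the 36 other hosts at 1 FPKM or more in any group, the ratio was above 0 in both populations for 11, below 0 in both for 12 and of opposite sign for 13. These counts took in ratios that had not passed the filter, and no share over all rows was formed beside them. The scalings raised the median of all rows in both comparisons, so that signs of small ratios depend on the scaling. No conclusion is drawn from the counts. MIR17HG and SMC4 were below 0 in both populations and MCM7 above 0.

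Past 10-fold were 0 of 32 other hosts between the AGO2 precipitates, 3 of 33 between the mocks, 3 of 32 in control_AGO over control_IgG and 3 of 34 in miR143_AGO over miR143_IgG. The shares of all rows were 1.03%, 8.87%, 9.36% and 5.27%. H19, the imprinted noncoding host of miR-675, was at 30.7 FPKM in control_AGO and 36.1 in miR143_AGO and listed at 0 in both mocks. SKA2, a kinetochore gene that hosts miR-301a and miR-454, had the opposite order, at 19.5 and 12.7 FPKM in the mocks of control and miR-143 cells and at 0.127 and 0.192 FPKM in their AGO2 precipitates. The other 3 were uneven between the populations. CHM was at 43.7, 0.218, 0 and 0.999 FPKM, RCL1 at 0, 0.853, 31.1 and 0, and EVL at 1.76, 7.24, 36.7 and 12.4, in the order of the 4 groups given at the start. Except for EVL, these hosts had passed the filter in their 10-fold comparisons only through the group where they were high. The filter thus fixed those directions.

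**Figure D5:**
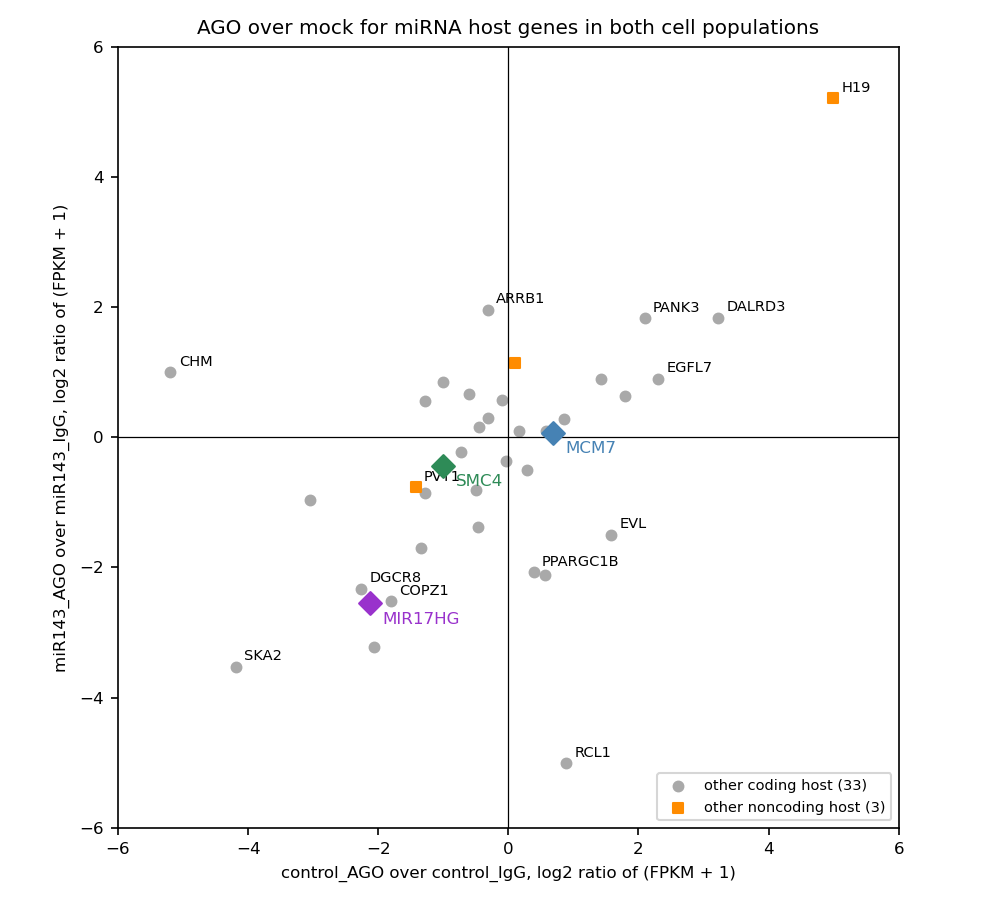
Log2 ratio of FPKM + 1 of AGO2 over mock in miR-143 cells (vertical) against the same in control cells (horizontal) for 36 other miRNA hosts (circles, 33 coding, and squares, 3 noncoding) and for MCM7, SMC4 and MIR17HG (diamonds), as values of single averages. MIR17HG lies among the low hosts of both populations near DGCR8 and COPZ1, MCM7 and SMC4 lie near the centre, and H19 stands alone at the upper right.

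By distance between centred log2 values over the 4 groups, among rows of like mean level, the row most like MCM7 was KLHL21, at 39.9, 61.1, 41.1 and 44.7 FPKM in that order of groups (distance 0.0666), followed by CNN2 and KLHDC3. Most like SMC4 was SNRPD1, a spliceosomal core protein, at 1.72, 0.343, 6.35 and 4.85 FPKM (distance 0.0751), followed by PIDD1 and MYH9. Most like MIR17HG were C10orf54, CEP63 and C16orf91, at distances of 0.213 to 0.230. The likeness rests on 4 averages for each row and, for these hosts, was sought among 559 to 4794 rows. For MIR143 the nearest row was at a distance of 14.1, so that no row resembled it.

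The miR-143-3p seed match, searched in the longest transcript of each gene on its own strand as TCATCTC or CATCTCA, was found at 1 position in MIR143HG and at 0 in MIR17HG, MCM7, MIR22HG, DLEU2 and SMC4. Among transcripts within 10% of the same length, 73.9% held a match for MIR143HG, 38.1% for MIR17HG, 39.6% for MCM7 and 59.4% for SMC4. A missing match says only that these letters are not in the transcript searched.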

How the data were processed

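RNA immunoprecipitation sequencing was deposited for 12 samples in 4 groups, which the titles of the samples name. As deposited by the authors, there were 4 tables with 1 average FPKM per row and group. The submitters' processing notes name TopHat, Cufflinks and the build hg38, with versions not given in the sources used here. The labels describe removal of rRNA and random priming, whereas the methods of the study name a TruSeq RNA kit. FPKM divides by length and so raises short rows against long ones, and rows of overlapping genes are joined.

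Rows were matched by exact name, with joined rows kept and marked. Ratios were log2 of (FPKM + 1) over rows of at least 1 FPKM in 1 group. The low edge is the 10th lowest product of FPKM and length above 0 over 18524 rows of genes with 1 transcript. Positions and lengths were taken from GENCODE 29, which matched 62.2% of single-name rows and may not be the authors' annotation, and mature sequences from RefSeq GRCh38.p14. Scripts (Python 3.11.15, pandas 2.3.3, numpy 2.4.6) were tested on simulated data for the ratio formula only. Fold changes were planted without noise in rows of high level, so that the filter, the low edge and the matching of rows were not tested. The planned tests on replicate values were replaced by ratios. The genes named were all 7 members, the miRNA genes in their hosts, the 5 highest and lowest other hosts at 1 FPKM or more in both groups, those past 10-fold, and the 3 most alike rows. Members and lists were chosen with earlier results of these data known. Alternatives were other pseudocounts, filters and scalings, and leaving out joined rows.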

Additional observations from a re-analysis of the deposited data

How the results depend on the processing

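No paired analysis was possible because the titles number the samples 1 to 3 in every group, but the deposited values are averaged over these numbers. The foreseen limma fit, the fits without each replicate and the replicate block were therefore not run. The MIR143 ratio of AGO2 over mock was 2.64 as deposited and at most 3.77 under 3 scalings.

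With a mean of at least 5 FPKM required, 0 hosts were past 2-fold between the AGO2 precipitates, 0 between the mocks and 0 in control_AGO over control_IgG, in place of 1, 1 and 2, as SMC4 and in the last MIR17HG no longer entered. Between the mocks, 2 hosts in place of 1 were past 2-fold with pseudocounts of 0.1 or 0.01, with the same median, with the same upper quartile and with the plain ratio, which was added after seeing the data. For the ratio corrected for the mock, 1 host in place of 0 was past 2-fold with a pseudocount of 0.1. Of the other hosts, 5 were past 2-fold between the AGO2 precipitates, against 9 with a pseudocount of 0.01, 8 with the plain ratio and 1 with the mean filter. The remaining 67 counts and ratios stayed within 1.5 times, where a count takes both directions together. Among them, the counts without the filter could not change, because on FPKM + 1 a row under 1 FPKM cannot reach 2-fold. The split by direction could still change. Under the 3 scalings, 1 host was higher and 1 lower in control_AGO over control_IgG, in place of 0 and 2. Of the single values of MIR17HG, MCM7 and SMC4, 92 moved by less than 1.5-fold, 14 moved by more and 0 called ones reversed. The 92 include values that could not move. Dropping the filter, leaving out joined rows or requiring the higher mean returned the same ratio wherever these single-name rows still entered. The scalings shifted the median of all rows by −0.09 to 0.15 between the AGO2 precipitates, 0.03 to 0.20 between the mocks, 0.33 to 0.53 in control_AGO over control_IgG and 0.24 to 0.42 in miR143_AGO over miR143_IgG.

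The lack of replicate values limits every ratio. Values of MIR143HG, MIR22HG and DLEU2, and of MIR17HG and SMC4 in the control groups, were at most 32.1 times the low edge. A listed 0 is not evidence of absence.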

Other observations

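Besides the joined DLEU2 row, 13 rows carry names from DLEU2_1 to DLEU2_6, which are not in GENCODE 29 and were not placed. Of these, 12 were at 0 in all groups. The remaining row, named DLEU2_6, was at 6622 FPKM in control_IgG and 1742 FPKM in miR143_IgG. It was high in both mocks and listed at 0 in both AGO2 precipitates, as RNU5E-1 and RNY1 were high in the mocks, whereas the DLEU2 row itself was above 0 in miR143_AGO only. These rows were looked up with the values known.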
